A study of Mus musculus with 2 samples.

Results

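The genes described here are 10 genes of lipid storage and of adipocyte formation, followed through the cells of the mouse aorta in mice with a mutated matrix Gla protein and in wild-type mice. They were picked by gene symbol: Lpl, Cd36, Fabp4, Plin2, G0s2, Pparg, Cebpa, Cebpb, Cebpd and Adipoq. All 10 were found, once each, among the 32285 genes of both count matrices. They were proposed after ratios between these libraries had been seen, G0s2 in fibroblasts among them, so the ratios below are descriptions and none is tested.

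The series holds single-cell RNA sequencing of 1 knock-in library and 1 wild-type library. The knock-in mice carry a mutation in Mgp, which encodes a matrix protein known to block calcification and to bind bone morphogenetic proteins, while the wild-type mice carry none. Both libraries come from aortas of animals 1 month old, with males and females mixed, the adventitia dissected away, the tissue digested enzymatically and dead cells sorted out. The labels do not give the residue changed, the strain, the number of animals pooled or the hour of collection.

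The knock-in library held 85831737 UMIs (unique molecular identifiers, 1 per captured RNA molecule) and the wild-type library 79626104. Filtering left 6089 knock-in cells (median 11650 UMIs) and 3588 wild-type cells (median 20395.5 UMIs), and 4 barcodes occurred in both. The knock-in library had 2898 fibroblast-like, 2603 smooth muscle-like (SMC-like), 295 macrophage or monocyte-like and 46 endothelial-like cells. The wild-type library had 2694 fibroblast-like, 306 SMC-like, 358 macrophage or monocyte-like and 64 endothelial-like cells. A cluster led by Mdga2, with 191 knock-in and 55 wild-type cells, scored close to both SMC and fibroblast markers and was left unnamed. A cluster led by cell-cycle genes, with 56 knock-in and 111 wild-type cells, was left unnamed too. Its markers differed between the libraries: T-cell markers summed to 988 CPM in knock-in and 14.0 CPM in wild-type cells, and fibroblast markers to 6726 CPM in knock-in and 21367 CPM in wild-type cells. The fibroblast-like cells formed 3 clusters, led by Pex5l, Entpd2 and Tmem100. Fibroblast markers were present in spite of the dissection of the adventitia.

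Adipocytes take up fatty acids that lipoprotein lipase releases from circulating lipoproteins, bind and esterify them, and keep the triglyceride in droplets coated by perilipins. Their formation runs through an ordered set of transcription factors. C/EBPβ and C/EBPδ come on early and induce PPARγ and C/EBPα, which maintain each other and switch on the genes of the mature cell. Several of these genes also work outside fat: FABP4 in endothelium, CD36 and PLIN2 in macrophages, and C/EBPβ and C/EBPδ in inflammatory and glucocorticoid responses of many cells.

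Promoter windows from RefSeq on build GRCm38.p6, from 250 bases before to 50 bases after an annotated start, were available for 7 of the 10 genes in 9 windows. The windows of the droplet genes G0s2 and Plin2 are shown because these genes contrast in fibroblast-like cells: G0s2 had the highest ratio between the libraries among the 10, and Plin2 was close to level. Each is printed along its gene's strand, with the motif matches in capitals. The G0s2 window lies at chr1:193273139-193273438 on the minus strand and the Plin2 window at chr4:86670010-86670309 on the minus strand.
G0s2: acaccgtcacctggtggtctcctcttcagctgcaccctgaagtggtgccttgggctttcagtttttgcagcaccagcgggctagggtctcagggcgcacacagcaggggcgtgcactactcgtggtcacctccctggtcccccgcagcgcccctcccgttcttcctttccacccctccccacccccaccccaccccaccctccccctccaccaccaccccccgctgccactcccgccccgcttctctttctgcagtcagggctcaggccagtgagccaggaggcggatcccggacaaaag
Plin2: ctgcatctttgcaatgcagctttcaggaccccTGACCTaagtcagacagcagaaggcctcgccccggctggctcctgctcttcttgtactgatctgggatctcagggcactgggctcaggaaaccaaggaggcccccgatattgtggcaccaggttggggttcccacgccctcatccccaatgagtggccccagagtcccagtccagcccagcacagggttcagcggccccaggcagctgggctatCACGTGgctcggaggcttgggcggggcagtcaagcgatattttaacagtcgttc

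The motifs searched, on both strands, were the E-box CACGTG, the D-box TTATGNAA, the C/EBP motif TTGCNNAA, the nuclear receptor element AGGTCA, the PPAR element, a direct repeat of AGGTCA with 1 base between, and the TATA box TATAAA. The Plin2 window held CACGTG across the start, at positions -4 to 2, and AGGTCA on the opposite strand at -218 to -213, where it reads TGACCT. The G0s2 window held none of these letters. Among all 32817 windows in the table, CACGTG occurred in 7.15%, the D-box in 3.39%, the C/EBP motif in 10.8%, AGGTCA in 16.3%, the PPAR element in 0.0396% and TATAAA in 13.6%. Of the 7 genes with a window, Plin2 alone held CACGTG, none held the D-box or the PPAR element, and Pparg alone held the C/EBP motif. These matches describe the letters of the windows only.

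The genes were spread over different cell classes. Levels are CPM, the summed UMIs of a gene over the total UMIs of the same cells, times 1000000, with exact Poisson intervals at 95% that cover counting error only, since each genotype has 1 library. Cd36, Plin2, Cebpa and Cebpb were highest in macrophage or monocyte-like cells of both libraries. Fabp4 was highest in endothelial-like cells of both libraries, and Cebpd in fibroblast-like cells of both. Pparg was highest in macrophage or monocyte-like cells of the knock-in library, at 23.8 CPM, and in the wild-type library it was at 33.5 CPM in endothelial-like and 26.2 CPM in macrophage or monocyte-like cells, whose intervals overlap. G0s2 was highest in fibroblast-like cells of the knock-in library, as was Lpl, at 115 CPM against 104 CPM in macrophage or monocyte-like cells, again with overlapping intervals. In the wild-type library the highest G0s2 level was in the cluster led by cell-cycle genes, where 1 cell held 66.8% of it, and Lpl was at 247 CPM in fibroblast-like cells and 236 CPM in the Mdga2 cluster, whose intervals overlap.

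**Figure D1:**
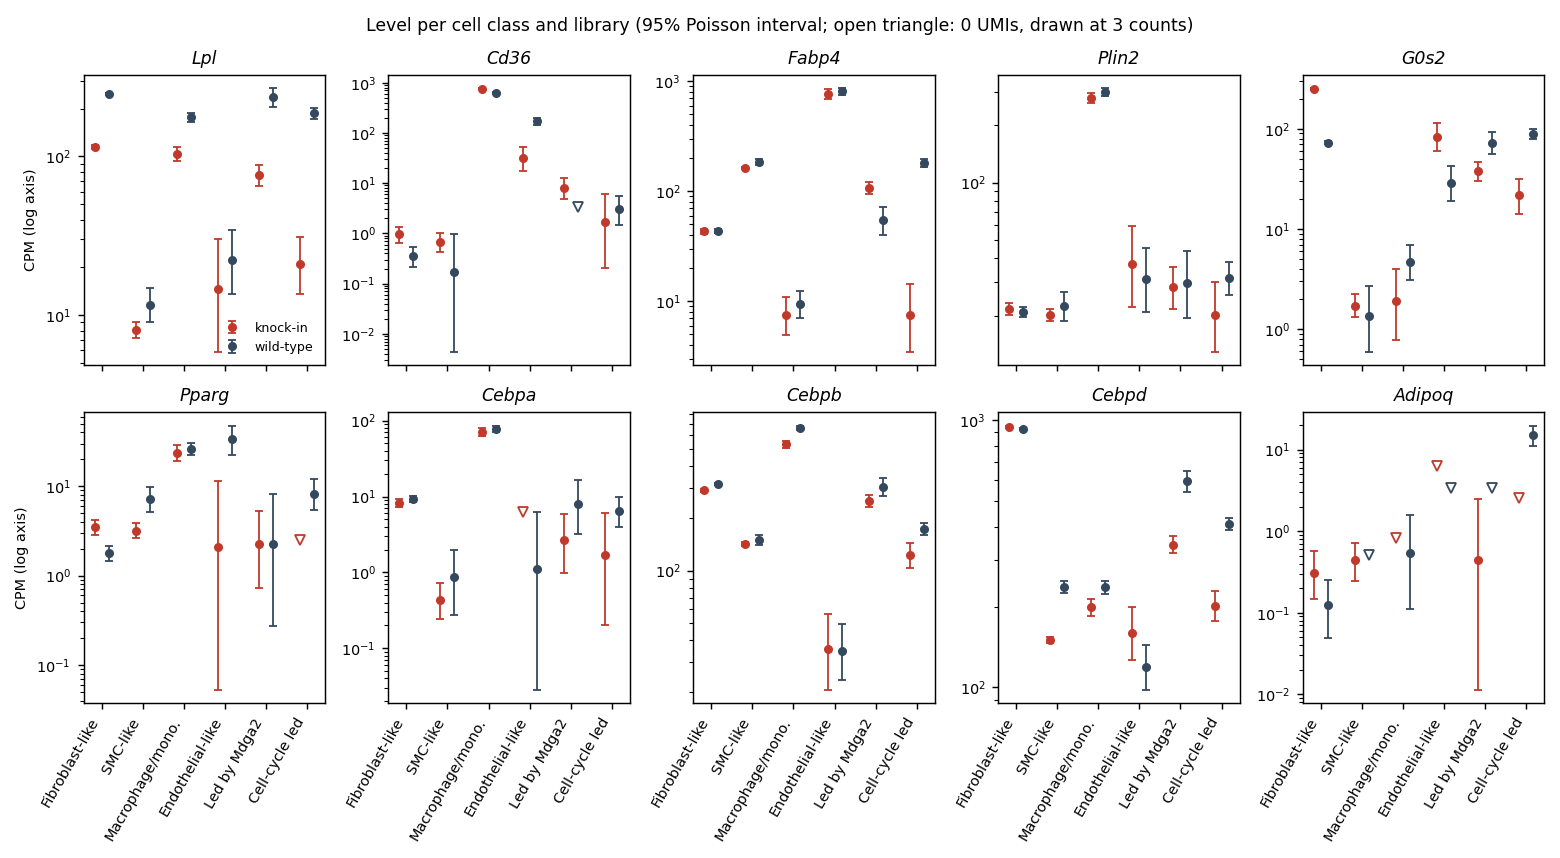
Level of each of the 10 genes in CPM on a log axis (vertical) in 6 cell classes (horizontal), knock-in in red left of wild-type in blue-grey, with 95% Poisson intervals; open triangles mark 0 UMIs at the level of 3 counts. Fibroblast-like G0s2 stood at 252 CPM in the knock-in and 72.7 CPM in the wild-type library, and fibroblast-like Lpl at 115 CPM in knock-in and 247 CPM in wild-type cells.

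In fibroblast-like cells, G0s2 was higher and Lpl lower in the knock-in library, and the transcription factors of the C/EBP family were close between the libraries. A gene is called here when its levels lie at least 1.5-fold apart with at least 50 UMIs over both libraries. By that rule G0s2, Cd36 and Pparg, 3 of the 10, were higher, against 7.23% of the 14102 genes with that many UMIs. Lpl alone was lower, against 7.9% of all genes. Fabp4, Plin2, Cebpa, Cebpb and Cebpd lay within 1.5-fold, and Adipoq had too few UMIs. The calls of Cd36 and Pparg, unlike those of G0s2 and Lpl, were gone when 2 knock-in and 2 wild-type barcodes rich in adipocyte markers were left out. The median log2 ratio over all these genes was -0.07.

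**Figure D2:**
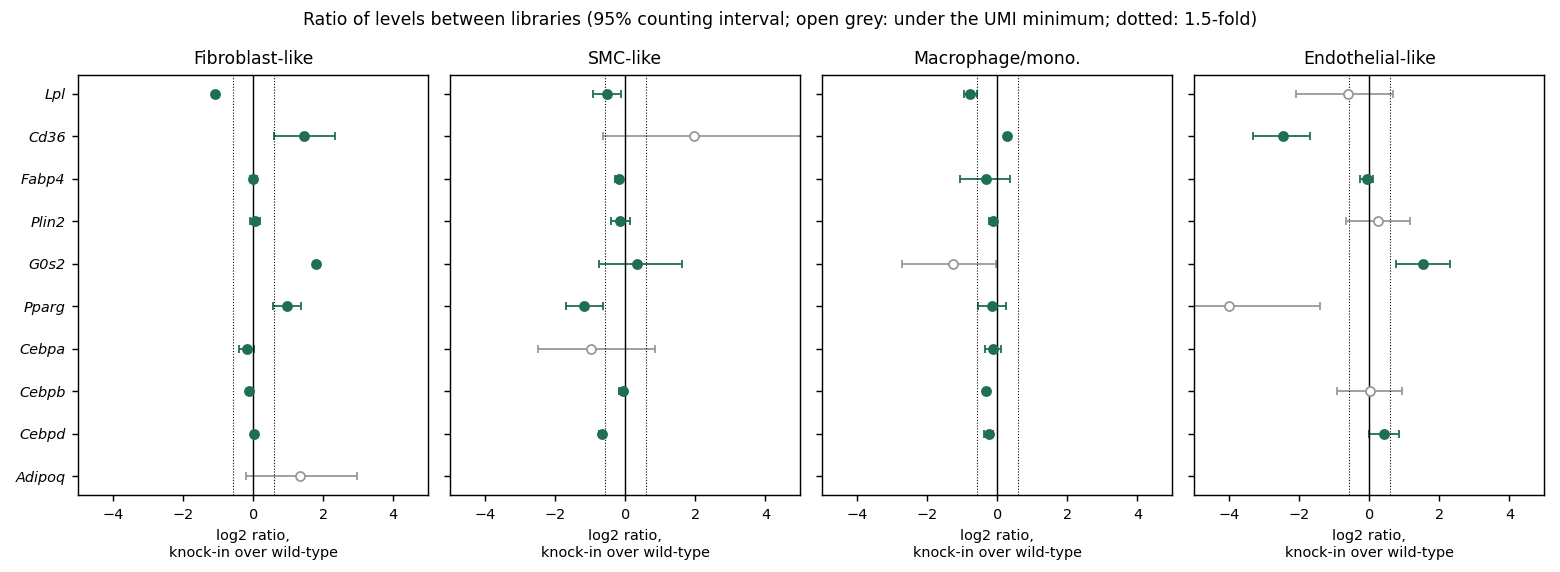
Log2 ratio of knock-in over wild-type levels (horizontal) for the 10 genes (vertical) in 4 cell classes, with exact conditional binomial intervals at 95%; open grey points rest on fewer than 50 UMIs, dotted lines mark 1.5-fold, and 2 intervals run past the axis. In fibroblast-like cells Lpl stood at -1.11 and G0s2 at 1.79, while Plin2, Cebpb and Cebpd lay between -0.11 and 0.05.

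Lpl encodes lipoprotein lipase, the secreted enzyme that releases fatty acids from lipoprotein triglyceride. Its transcripts counted 3712 UMIs in knock-in and 14060 UMIs in wild-type fibroblast-like cells, or 115 CPM in the knock-in (interval 111 to 119) and 247 CPM in the wild-type library (243 to 251). The log2 ratio was -1.11 (interval -1.16 to -1.05), 2.15-fold lower in the knock-in. Lpl was lower in the knock-in in each of the 3 fibroblast-like clusters, by unequal amounts. In the Tmem100 cluster it stood at 137 CPM in the knock-in and 440 CPM in the wild-type library, a log2 ratio of -1.68. Finer clusters within it, filled unequally by the libraries, gave smaller ratios: -1.07 in the one led by C3, -1.20 in the one led by Igfbp6 and -0.53 in the one led by Nav3. In the Entpd2 cluster the levels were 156 CPM in knock-in and 273 CPM in wild-type cells, a ratio of -0.80, and in the Pex5l cluster 90.0 CPM in knock-in and 128 CPM in wild-type cells, a ratio of -0.50 that missed the 1.5-fold limit. The order of the clusters in the wild-type library, Tmem100 over Entpd2 over Pex5l, was not that of the knock-in library, where the Entpd2 cluster was highest. The C3 cells were 166 of the 448 knock-in and 492 of the 761 wild-type Tmem100 cells, with 296 CPM of Lpl in the knock-in. The Igfbp6 cells were 226 knock-in and 130 wild-type Tmem100 cells, with 38.5 CPM in the knock-in. Whether the order differs among like cells was not tested.

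A finer clustering of all cells named 10 clusters fibroblast-like. The one led by Chrm3 took 111 of its 113 cells from the unnamed Mdga2 cluster and is left out of the counts that follow. Lpl was lower in the knock-in in 9 of the other 9, past 1.5-fold in 5. The ratios ran between -1.06 in the cluster led by Upk3b and -0.24 in the cluster led by Lrp1b. For the Upk3b cluster, of 96 knock-in and 247 wild-type cells, the next-best marker list after fibroblast was mesothelial. Without the adipocyte-marker barcodes, mesothelial markers counted 15 UMIs in knock-in and 1692 UMIs in wild-type fibroblast-like cells. Their part in the Lpl and G0s2 ratios of the Upk3b cluster was not tested. The cluster led by C3 held the highest Lpl levels in both libraries, 296 CPM in the knock-in and 597 CPM in the wild-type. Female cells gave a ratio of -1.25 and male cells -1.05. To set aside depth, cells were thinned to 3000 UMIs each, which left out 387 knock-in and 66 wild-type cells as too shallow. Lpl was then seen in 24.1% of knock-in and 40.0% of wild-type cells (unthinned 45.1% of knock-in and 72.6% of wild-type cells). Among SMC-like cells, thinned the same way, it was seen in 2.51% of knock-in and 2.29% of wild-type cells. Fibroblast-like cells had medians of 10842.5 UMIs in the knock-in and 21517 in the wild-type library, and SMC-like cells 12204 in the knock-in and 17524 in the wild-type library.

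**Figure D3:**
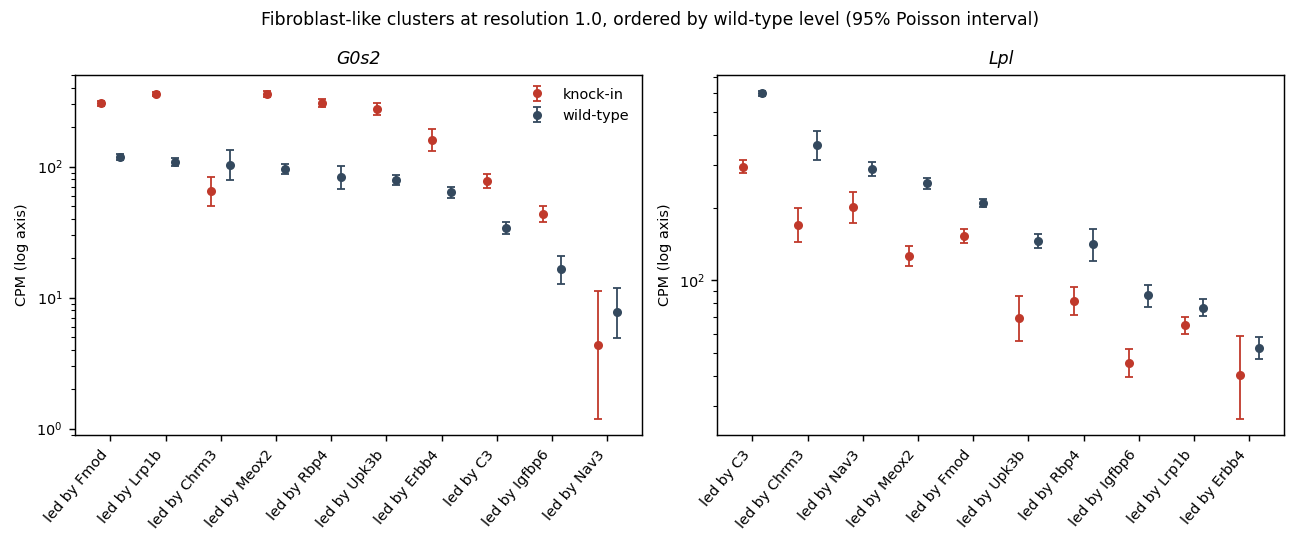
Levels of G0s2 (left) and Lpl (right) in CPM on a log axis (vertical) in the 10 finer clusters named fibroblast-like (horizontal, ordered by the wild-type level), of which the one led by Chrm3 consists almost wholly of cells of the unnamed Mdga2 cluster, knock-in in red left of wild-type in blue-grey, with 95% Poisson intervals. Leaving that one out, Lpl was lower in the knock-in in 9 of 9 clusters and G0s2 was higher in 8 of the 8 with at least 50 UMIs.

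Cd36, a membrane receptor that takes up long-chain fatty acids and oxidised lipoproteins, was nearly absent from fibroblast-like cells, with 31 UMIs in knock-in and 20 UMIs in wild-type cells. Its level was 0.959 CPM in the knock-in and 0.352 CPM in the wild-type library, a log2 ratio of 1.45 (interval 0.59 to 2.34). One knock-in cell held 14 of the 31 UMIs. Free RNA, taken from barcodes with at most 100 UMIs, held 39.8 CPM of Cd36 in the knock-in and 34.7 CPM in the wild-type library. It was estimated at 0.870% of fibroblast-like UMIs in the knock-in and 0.790% in the wild-type library. Subtraction of free RNA at these shares was among 20 other settings, over which the Cd36 ratio ran between 0.33 and 2.98. Beyond that subtraction, the part of free RNA in the Cd36 levels was not tested.

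Fabp4 encodes a cytosolic carrier of fatty acids that is abundant in adipocytes and capillary endothelium. Its summed level in fibroblast-like cells was 43.4 CPM in the knock-in and 43.3 CPM in the wild-type library, a log2 ratio of 0.00 (interval -0.09 to 0.10). The sums were equal, but the cells behind them were not. A single knock-in cell of 49915 UMIs held 570 of the 1403 knock-in UMIs of Fabp4, whereas no wild-type cell held more than 49 of 2461. Without the 2 adipocyte-marker barcodes of each library the ratio was -0.73. It was -0.78 in female and -0.85 in male cells, with 259 knock-in UMIs in females and 384 in males. Neither sex included the cell of 570 Fabp4 UMIs, whose sex was unclear. As a mean of per-cell levels, with that cell included, the ratio was -0.58. After thinning, Fabp4 was seen in 4.38% of knock-in and 6.58% of wild-type fibroblast-like cells (unthinned 8.59% of knock-in and 16.7% of wild-type cells), against 31.3% of knock-in and 33.0% of wild-type SMC-like cells.

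Plin2, the perilipin that coats droplets in most cell types, did not differ past counting error in fibroblast-like cells. It stood at 21.7 CPM in the knock-in (701 UMIs) and 20.9 CPM in the wild-type library (1187 UMIs), a log2 ratio of 0.05 (interval -0.08 to 0.19). The 3 clusters gave ratios of 0.12 for Pex5l, 0.17 for Entpd2 and 0.01 for Tmem100, each with an interval that held 0. Under 20 other settings its fibroblast-like ratio ran between -0.06 and 0.17.

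G0s2 encodes a small protein that binds and inhibits adipose triglyceride lipase, the enzyme of the first step of droplet breakdown. It counted 8140 UMIs in knock-in and 4135 UMIs in wild-type fibroblast-like cells, or 252 CPM in the knock-in (interval 246 to 257) and 72.7 CPM in the wild-type library (70.5 to 75.0). The log2 ratio was 1.79 (interval 1.74 to 1.85), 3.46-fold higher in the knock-in. No cell dominated the sum: the cell with most G0s2 held 61 UMIs in the knock-in and 28 in the wild-type library. The Pex5l cluster, with 348 CPM in the knock-in and 101 CPM in the wild-type library, gave a ratio of 1.79. The Entpd2 cluster, with 252 CPM in knock-in and 72.4 CPM in wild-type cells, gave 1.80. Both were filled unequally by finer clusters. The one led by Rbp4 had 519 of the 1096 knock-in and 100 of the 579 wild-type Entpd2 cells. Of 1354 Pex5l cells in each library, 35 knock-in and 281 wild-type cells lay in the one led by Erbb4. The one led by Upk3b had 85 knock-in and 208 wild-type Pex5l cells. The part of this make-up in the G0s2 and Lpl ratios of both clusters was not tested. The Tmem100 cluster had the lowest G0s2 and the smallest difference, 40.2 CPM in the knock-in and 25.1 CPM in the wild-type library, a ratio of 0.68. That ratio was 1.01 in female cells and 0.16 (interval -0.17 to 0.48) in male cells of the cluster. The finer clusters within it were filled unequally: the one led by C3 had 166 knock-in and 492 wild-type cells, the one led by Igfbp6 226 knock-in and 130 wild-type cells, and the one led by Nav3 45 knock-in and 117 wild-type cells. The G0s2 ratio was 0.92 in the C3 cells and 1.05 in the Igfbp6 cells.

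Among the 9 finer clusters, G0s2 was past 1.5-fold higher in the knock-in in 8 of the 8 with enough UMIs, up to 1.90 in the cluster led by Meox2. Female cells gave 309 CPM in the knock-in and 83.6 CPM in the wild-type library, and male cells 190 CPM in knock-in and 67.0 CPM in wild-type cells. Thinned cells with a G0s2 UMI made up 40.2% of knock-in and 18.9% of wild-type fibroblast-like cells (unthinned 62.0% of knock-in and 51.4% of wild-type cells), but 0.386% of knock-in and 0.327% of wild-type SMC-like cells. Thinned cells with at least 5 G0s2 UMIs made up 3.70% of knock-in and 0.114% of wild-type fibroblast-like cells. Free RNA held 110 CPM of G0s2 in the knock-in and 60.6 CPM in the wild-type library, while SMC-like cells held 1.72 CPM in knock-in and 1.37 CPM in wild-type cells. Free RNA was estimated at 0.870% of fibroblast-like UMIs in the knock-in and 0.790% in the wild-type library.

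G0s2 and Lpl did not sort into separate cells. Among thinned knock-in fibroblast-like cells, Lpl was seen in 24.2% of those with G0s2 and in 24.0% of those without. Among wild-type cells it was seen in 39.6% of those with G0s2 and in 40.1% of those without. The genes divided by cluster instead: in the wild-type library the Tmem100 cluster had the highest Lpl and the lowest G0s2, and the Pex5l cluster the reverse.

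Pparg, the nuclear receptor that is required for adipocyte formation, was scarce in fibroblast-like cells, with 112 UMIs in the knock-in and 101 UMIs in the wild-type library. That made 3.46 CPM in the knock-in and 1.78 CPM in the wild-type library, a log2 ratio of 0.96 (interval 0.56 to 1.37). The 2 knock-in barcodes rich in adipocyte markers held 59.8% of the knock-in UMIs, and the 2 wild-type ones 11.9% of the wild-type UMIs. Without them the ratio was -0.17. With these barcodes kept, it was -0.62 in female cells, on 20 knock-in and 45 wild-type UMIs. In male cells it was 1.495, on 63 knock-in and 55 wild-type UMIs. A single knock-in barcode of the Tmem100 cluster, rich in adipocyte markers, held 44 of those 63 UMIs. After thinning, 0.438% of knock-in and 0.266% of wild-type cells had a Pparg UMI (unthinned 1.35% of knock-in and 1.97% of wild-type cells), with intervals that overlap.

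Cebpa, the partner of PPARγ in the mature adipocyte, stood at 8.16 CPM in knock-in and 9.34 CPM in wild-type fibroblast-like cells, a log2 ratio of -0.19 (interval -0.41 to 0.02). The clusters were not alike. In the Tmem100 cluster Cebpa was at 5.91 CPM in the knock-in and 13.00 CPM in the wild-type library, a ratio of -1.14 on 48 knock-in and 235 wild-type UMIs, and of -0.705 in its finer cluster led by C3. In the Pex5l and Entpd2 clusters the ratios were 0.26 and 0.06, with intervals that held 0.

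Cebpb and Cebpd, the early factors, were seen in most fibroblast-like cells. Cebpb stood at 291 CPM in the knock-in and 314 CPM in the wild-type library, a log2 ratio of -0.11 (interval -0.15 to -0.07). Cebpd stood at 945 CPM in the knock-in and 926 CPM in the wild-type library, a ratio of 0.03 (interval 0.01 to 0.05). After thinning, Cebpd was seen in 80.2% of knock-in and 79.6% of wild-type cells, and Cebpb in 52.4% of knock-in and 53.0% of wild-type cells. Cebpd differed by cluster: 1178 CPM in the knock-in and 1057 CPM in the wild-type library in Pex5l, in Entpd2 872 CPM in knock-in and 885 CPM in wild-type cells, and in Tmem100 486 CPM in knock-in and 721 CPM in wild-type cells, where the ratio was -0.57. In the Tmem100 cluster Cebpb was at 171 CPM in knock-in and 201 CPM in wild-type cells. Both factors varied among the unequally filled finer clusters of the Tmem100 cluster. The Cebpd ratio was 0.14 in the Igfbp6 cells, -0.39 in the C3 cells and -0.31 in the Nav3 cells, and the Cebpb ratio was 0.07 in the Igfbp6 cells, -0.39 in the C3 cells and -0.98 in the Nav3 cells. The calls in the Tmem100 cluster were G0s2 and Pparg higher and Lpl and Cebpa lower, against 5.67% of its genes higher and 9.74% lower. The Pparg call rested on 1 barcode: without those rich in adipocyte markers Pparg had 29 UMIs in knock-in and 76 UMIs in wild-type cells, a ratio of -0.23. In the Pex5l cluster G0s2 was called higher and none of the 10 lower, against 8.4% of its genes higher and 7.32% lower. Without the adipocyte-marker barcode of that cluster Fabp4 was called lower too, at -0.80. In the Entpd2 cluster G0s2 was called higher and Lpl and Fabp4 lower, against 5.69% of its genes higher and 9.69% lower. The Fabp4 ratio there was 1.70 in female cells, on 21 knock-in and 8 wild-type UMIs, and -2.01 in male cells, on 9 knock-in and 79 wild-type UMIs.

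Adipoq, the gene of the hormone adiponectin that marks mature adipocytes, counted 26 UMIs over all knock-in cells and 59 over all wild-type cells. In fibroblast-like cells it counted 10 UMIs in the knock-in and 7 in the wild-type library. A single knock-in fibroblast-like cell held 9 of the 10, and a single wild-type cell in the cell-cycle cluster held 49 of the 59. In knock-in SMC-like cells 15 UMIs were spread over 0.384% of the cells, and wild-type SMC-like cells had 0, which at their smaller number allows up to 0.514 CPM (3 counts).

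A list of 11 adipocyte markers without these 10 genes was read beside them. Its summed level in fibroblast-like cells was 26.3 CPM in the knock-in and 8.93 CPM in the wild-type library, with 9 of the 11 seen in each and Lep and Pck1 at 0 in both. Without the barcodes described next the sum was 4.71 CPM in the knock-in and 5.58 CPM in the wild-type library. Barcodes with at least 10 UMIs over the list numbered 2 among knock-in and 3 among wild-type kept cells. The knock-in cell of 49915 UMIs, in the Pex5l cluster, held 570 Fabp4, 547 Car3, 89 Lpl, 37 G0s2, 23 Pparg, 9 Adipoq and 8 Plin1 UMIs, with 0 Pdgfra. The knock-in cell of 35319 UMIs, in the Tmem100 cluster, held 92 Car3, 48 Lpl, 44 Pparg and 25 Plin1 UMIs, with 4 Fabp4 and 0 Adipoq. The wild-type cell of 50655 UMIs, in the cell-cycle cluster, held 616 Car3, 480 Fabp4, 195 G0s2, 114 Lpl, 49 Adipoq, 45 Plin1 and 25 Pparg UMIs. The other 2 wild-type cells lay in the Tmem100 cluster, with 180 and 11 UMIs over the list. Such cells held 40.9% of the knock-in fibroblast-like UMIs of Fabp4 and 45.2% of those of Cd36, but 0.467% of those of G0s2 and 3.69% of those of Lpl. Their levels combine markers of adipocytes and of stroma, and whether each is 1 cell was not tested.

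**Figure D4:**
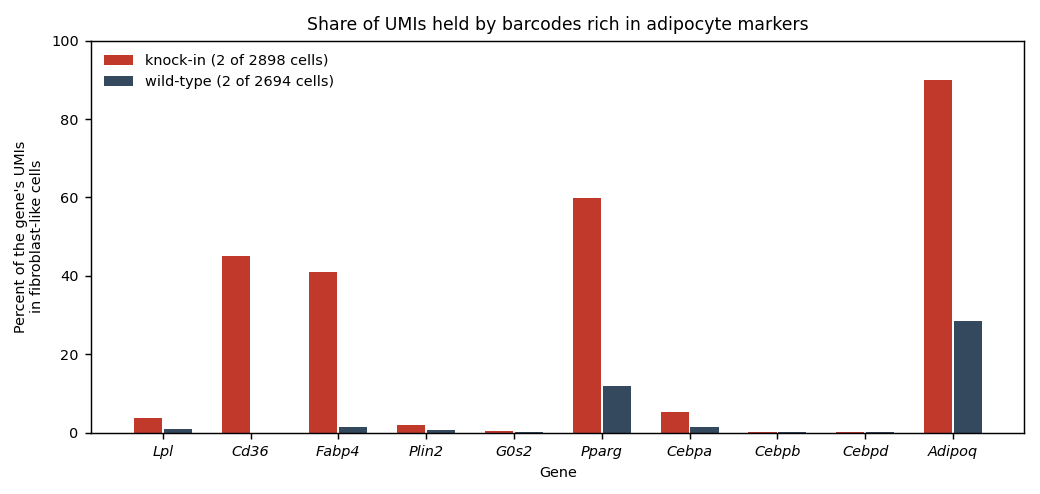
Percent of each gene's fibroblast-like UMIs (vertical) held by barcodes with at least 10 adipocyte-marker UMIs (2 of 2898 knock-in cells, red, left; 2 of 2694 wild-type cells, blue-grey, right) for the 10 genes (horizontal). The knock-in bars reach 90.0% for Adipoq, 59.8% for Pparg, 45.2% for Cd36 and 40.9% for Fabp4, and stay at 0.467% for G0s2.

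In SMC-like cells the pattern was another one: Pparg and Cebpd were lower in the knock-in library, none of the 10 genes was called higher, and G0s2 was close to absent. The background was 7.60% of 12389 genes higher and 7.69% lower. Cebpd stood at 151 CPM in knock-in (5159 UMIs) and 238 CPM in wild-type SMC-like cells (1389 UMIs), a log2 ratio of -0.66 (interval -0.74 to -0.57). The knock-in level was the lower one in the Mylk4 cluster, with 128 CPM against 232 CPM in the wild-type library. In the Sncg cluster it was the higher one, with 381 CPM against 272 CPM in the wild-type library. With a mitochondrial limit of 5% the SMC-like ratio of Cebpd was -0.30, under the 1.5-fold limit. Pparg stood at 3.18 CPM in the knock-in (109 UMIs) and 7.19 CPM in the wild-type library (42 UMIs). The ratio was -1.18 (interval -1.70 to -0.63), and no barcode with at least 10 adipocyte-marker UMIs was among these cells. It was -0.76 (interval -1.53 to 0.08) in the Mylk4 and -0.96 (interval -1.71 to -0.17) in the Sncg cluster. The Sncg cluster had 237 of the 2603 knock-in and 47 of the 306 wild-type SMC-like cells. Of the 42 wild-type Pparg UMIs, 22 lay in 21 male Sncg cells. The ratio was -0.71 in female cells (interval -1.66 to 0.36) and -1.43 in male cells (interval -2.19 to -0.66). The calls in the Mylk4 cluster were Pparg and Cebpd lower and G0s2 higher, the last on 50 knock-in and 5 wild-type UMIs, against 8.04% of its genes higher and 8.22% lower. The intervals of the Pparg and G0s2 ratios there both held 0. In the Sncg cluster Cebpb was called higher and Lpl, Plin2 and Pparg lower, against 9.15% of its genes higher and 7.66% lower.

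Fabp4 was a regular transcript of SMC-like cells, with 163 CPM in the knock-in and 186 CPM in the wild-type library, a log2 ratio of -0.19 (interval -0.29 to -0.10). It was higher in the Sncg than in the Mylk4 cluster of each library: 349 against 144 CPM in the knock-in and 433 against 140 CPM in the wild-type. Cebpb was at 142 CPM in the knock-in and 150 CPM in the wild-type library, and in the Sncg cluster 453 CPM in knock-in and 275 CPM in wild-type cells, a ratio of 0.72. Plin2 was at 20.2 CPM in knock-in and 22.4 CPM in wild-type cells, with an interval of the ratio that held 0. Lpl stood at 8.06 CPM in knock-in and 11.6 CPM in wild-type cells. Free RNA held 50.7 CPM of Lpl in the knock-in and 156 CPM in the wild-type library. It was estimated at 0.712% of SMC-like UMIs in the knock-in and 0.677% in the wild-type library. The SMC-like Lpl ratio was -0.53. Subtraction of free RNA at these shares was among 15 other settings, over which that ratio ran between -1.02 and 0.45. Beyond that subtraction, the part of free RNA in the Lpl levels was not tested. By cluster, Lpl stood at 6.10 CPM in knock-in and 4.66 CPM in wild-type cells of the Mylk4 cluster, and at 28.0 CPM in knock-in and 49.9 CPM in wild-type cells of the Sncg cluster. The 8 fibroblast markers summed to 1443 CPM in knock-in and 2933 CPM in wild-type SMC-like cells. They were lower in the knock-in in both clusters. In the Mylk4 cluster they summed to 1455 CPM in knock-in and 2778 CPM in wild-type cells. In the Sncg cluster they summed to 1327 CPM in knock-in and 3780 CPM in wild-type cells. The Lpl ratio was 0.39 in the Mylk4 cluster, with an interval that held 0 (-0.24 to 1.08), and -0.83 in the Sncg cluster. The Cebpd ratio was -0.86 in the Mylk4 and 0.49 in the Sncg cluster. The part of the fibroblast markers in these ratios was not tested.

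Macrophage or monocyte-like cells held the highest Cd36, Plin2, Cebpa and Cebpb, and these were close between the libraries. The background was 4.69% of 9553 genes higher and 7.82% lower. Cd36 stood at 765 CPM in knock-in and 630 CPM in wild-type cells, a log2 ratio of 0.28 (interval 0.21 to 0.35). It was seen in 93.6% of knock-in and 86.6% of wild-type cells, against 0.621% of knock-in and 0.668% of wild-type fibroblast-like cells. Plin2 stood at 278 CPM in knock-in and 300 CPM in wild-type cells, a ratio of -0.11. Cebpa was at 71.6 CPM in the knock-in and 78.4 CPM in the wild-type library, and Pparg at 23.8 CPM in knock-in and 26.2 CPM in wild-type cells, each ratio with an interval that held 0. Cebpb was at 534 CPM in knock-in and 663 CPM in wild-type cells, a ratio of -0.31.

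Lpl was the only one of the 10 called in these cells, lower in the knock-in with 104 CPM against 176 CPM in the wild-type library, a log2 ratio of -0.77. The difference lay in few cells. The finer clustering set apart 20 knock-in and 45 wild-type cells, which held 204 of the 375 knock-in and 745 of the 976 wild-type Lpl UMIs. In these cells the 6 dendritic markers summed to 463 CPM in the knock-in and 240 CPM in the wild-type library and the 5 mast-cell markers to 5395 CPM in the knock-in and 2618 CPM in the wild-type library. In the other cells of the class the dendritic markers summed to 19.9 CPM in the knock-in and 14.9 CPM in the wild-type library. In these 275 knock-in and 313 wild-type cells, led by C1qa, Lpl stood at 51.5 CPM in the knock-in and 49.0 CPM in the wild-type library, and the ratio of the class at that resolution was 0.07.

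Endothelial-like cells, 46 in the knock-in and 64 in the wild-type library, gave few UMIs. Fabp4 was highest here, with 772 CPM in knock-in (371 UMIs) and 813 CPM in wild-type cells (728 UMIs), a log2 ratio of -0.08 (interval -0.26 to 0.11). It was seen in 45.7% of knock-in and 26.6% of wild-type cells. Cd36 was lower in the knock-in, with 31.2 CPM (15 UMIs) against 171 CPM in the wild-type library (153 UMIs), a ratio of -2.45. A single wild-type cell held 37.9% of the wild-type UMIs, and with no doublet removal the ratio was -0.54. G0s2 was higher in the knock-in, with 83.2 CPM (40 UMIs) against 29.0 CPM in the wild-type library (26 UMIs), a ratio of 1.52. These were the 2 calls, against 7.72% of 4609 genes higher and 11.0% lower. The 6 lymphatic endothelial markers summed to 54.1 CPM in knock-in and 927 CPM in wild-type cells of the class, and the 8 fibroblast markers to 2420 CPM in knock-in and 644 CPM in wild-type cells. Their part in the Cd36 and G0s2 ratios was not tested. Pparg had 1 knock-in and 30 wild-type UMIs, 19 of them in 1 cell.

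In the unnamed cluster led by Mdga2, G0s2 ran against the fibroblast-like cells, with 38.1 CPM in the knock-in and 73.0 CPM in the wild-type library, a log2 ratio of -0.94. Lpl was lower, with 76.2 CPM in knock-in and 236 CPM in wild-type cells, a ratio of -1.63, and Cebpd was lower, with 342 CPM in knock-in and 590 CPM in wild-type cells. Fabp4 was higher, with 107 CPM in knock-in and 54.8 CPM in wild-type cells, a ratio of 0.96. The background was 7.85% of 7555 genes higher and 10.6% lower. The cluster held 79 knock-in and 0 wild-type cells scored as female, and in male cells alone the Fabp4 ratio was 0.39 (interval -0.15 to 0.94), while G0s2 was at -1.19, Lpl at -1.38 and Cebpd at -0.95. SMC markers summed to 9213 CPM in knock-in and 5653 CPM in wild-type cells of the cluster, and fibroblast markers to 11569 CPM in knock-in and 15048 CPM in wild-type cells. The part of these markers in the ratios was not tested. In the unnamed cell-cycle cluster none of the 10 was called higher and 5 were lower, where 20.9% of 8824 genes were higher and 30.2% lower. The finer clustering put 29 of the 56 knock-in cells and 1 of the 111 wild-type cells in a cluster led by the T-cell gene Trbc2. In the other 27 knock-in and 110 wild-type cells in the finer cell-cycle cluster, Cebpd stood at 426 CPM in the knock-in and 412 CPM in the wild-type library, a ratio of 0.05. Lpl was still lower there, with 44.7 CPM in knock-in and 188 CPM in wild-type cells. Its ratio was -2.07 (interval -2.77 to -1.44). The ratios in the same cells were -3.42 for Fabp4, -1.39 for G0s2 and -0.30 for Plin2, the last with an interval that held 0. The wild-type cell rich in adipocyte markers held 80.7% of the wild-type Fabp4, 66.8% of the wild-type G0s2 and 18.6% of the wild-type Lpl UMIs of the cluster.

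Over all kept cells, where the libraries differ in their make-up, G0s2 and Fabp4 were called higher and Lpl, Cebpa, Cebpd and Adipoq lower, against 13.6% of 16092 genes higher and 14.9% lower. Fabp4 stood at 103 CPM in the knock-in and 67.8 CPM in the wild-type library over all cells, a log2 ratio of 0.60, though in the 4 named classes the Fabp4 ratio lay between -0.33 and 0.00. SMC-like cells, which carry Fabp4, were 42.7% of knock-in and 8.53% of wild-type cells.

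The wider pathways were read from lists that include these genes. In fibroblast-like cells, where 7.23% of all genes were higher and 7.9% lower and the median was -0.07, 3 of 13 droplet and lipolysis genes with enough UMIs were higher and none lower, with a median log2 ratio of 0.12. Beside G0s2 these were Plin4, at 3.83 CPM in the knock-in and 1.23 CPM in the wild-type library, and Plin1, at 1.05 CPM in knock-in and 0.281 CPM in wild-type cells, both perilipins of adipocytes. The 2 knock-in adipocyte-marker barcodes held all but 1 of the knock-in Plin1 UMIs, and without such barcodes Plin1 had 1 UMI in knock-in and 7 UMIs in wild-type cells, so that 2 of 12 were higher, while Plin4 was at 3.81 CPM in knock-in and 1.23 CPM in wild-type cells. Of 17 uptake genes 3 were higher and 2 lower, with a median of -0.03. The lipoprotein receptor Vldlr was at 39.1 CPM in the knock-in and 22.2 CPM in the wild-type library, and the muscle fatty acid carrier Fabp3 at 6.15 CPM in knock-in and 4.04 CPM in wild-type cells. Both were higher, as was Cd36, whose call rested on those barcodes. The lower ones were Lpl and Fabp5, a close relative of Fabp4, at 95.7 CPM in knock-in and 144 CPM in wild-type cells.

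Of 16 lipid synthesis genes 2 were higher and 1 lower, near the shares of all genes, with a median of -0.21. Dgat2, which makes triglyceride, was at 9.96 CPM in the knock-in and 2.83 CPM in the wild-type library, a log2 ratio of 1.81, and the phosphatidate phosphatase Lpin1 at 10.1 CPM in knock-in and 5.45 CPM in wild-type cells. The desaturase Scd2 was lower, at 79.1 CPM in knock-in and 139 CPM in wild-type cells. Of 16 fatty acid oxidation and PPAR target genes none was higher and 2 were lower, with a median of 0.06: the mitochondrial carrier Ucp2, at 7.76 CPM in knock-in and 30.2 CPM in wild-type cells, and the peroxisomal enzyme Ehhadh, at 0.866 CPM in knock-in and 1.48 CPM in wild-type cells. Dgat2 was higher in SMC-like cells too, with 8.94 CPM in the knock-in and 2.40 CPM in the wild-type library, a ratio of 1.90.

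Of 18 adipogenic transcription factors, Pparg included, 4 were higher and none lower in fibroblast-like cells, against 7.23% of all genes higher and 7.9% lower, with a median of 0.11. Without the adipocyte-marker barcodes Pparg was not among them and Stat5a was. Klf15 was at 12.1 CPM in the knock-in and 6.82 CPM in the wild-type library, Klf5 at 16.8 CPM in knock-in and 10.5 CPM in wild-type cells, and Ebf1 at 649 CPM in knock-in and 415 CPM in wild-type cells. Of 10 inhibitors of adipogenesis 1 was higher and 1 lower, with a median of -0.01. Dlk1, the preadipocyte factor that holds back differentiation, had 8 UMIs in knock-in and 202 UMIs in wild-type cells, a log2 ratio of -3.84. Sfrp2, a secreted Wnt modulator, was at 1479 CPM in the knock-in and 925 CPM in the wild-type library. In SMC-like cells Klf15 was at 31.5 CPM in knock-in and 12.8 CPM in wild-type cells, a ratio of 1.29.

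Gene sets outside lipid metabolism differed between the libraries in the same cells. Of 15 clock genes 10 were higher and 3 lower in fibroblast-like cells, with a median of 1.69, and 11 were higher and 3 lower in SMC-like cells, with a median of 1.82. The 3 lower ones were Arntl, Npas2 and Clock in both. Dbp, a circadian output factor, was at 364 CPM in knock-in and 26.2 CPM in wild-type fibroblast-like cells, and Arntl, the core activator, at 3.19 CPM in knock-in and 41.3 CPM in wild-type cells. Of 10 glucocorticoid-response genes 4 were higher (Mt1, Mt2, Per1 and Tsc22d3) and 1 lower (Errfi1), with a median of 0.44, and of 12 genes of dissociation stress none was called, with a median of 0.00. Per1 is in both the clock and the glucocorticoid-response list and is counted in each. The 6 mesothelial markers summed to 0.464 CPM in knock-in and 29.8 CPM in wild-type fibroblast-like cells, 1567 of the 1692 wild-type UMIs in the Pex5l cluster. The part of the clock, glucocorticoid and mesothelial genes in the ratios of G0s2 and Lpl was not tested, and with 1 library for each, genotype and library cannot be told apart.

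Genes with the most similar profile were sought over 18 profiles, the 9 clusters in each library, by Pearson's correlation of log2(CPM + 10). The profiles share libraries and depth, so the values describe them only. The nearest genes were Tmem204 (0.92) for G0s2, Mmp19 (0.89) for Lpl, Ctla2b (0.99) for Cd36, Fmnl3 (0.94) for Fabp4 and Slc15a3 (0.98) for Plin2. For the factors they were Foxn2 (0.88) for Pparg, Scamp5 (0.98) for Cebpa, Ppfibp2 (0.90) for Cebpb and Ndufa4l2 (0.92) for Cebpd. For Adipoq it was Car3 (0.87), a gene of the adipocyte marker list. Adipoq stood at 14.9 CPM in the wild-type cell-cycle profile, and its next highest level was 0.978 CPM, in knock-in Sncg cells. In that wild-type profile 1 barcode held all 49 Adipoq UMIs and 616 Car3 UMIs, so the value rests largely on that barcode.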

How the data were processed

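The 10 genes and every list used here were chosen with earlier results of these data known. The authors deposited raw UMI counts per gene and barcode, over 1421297 knock-in and 1307634 wild-type barcodes with no cell filter, made with Cell Ranger (version 7.1.0 per the submitters' processing notes). The sources used here give no genome build, annotation or strand setting. In GENCODE vM21, Lamb3, Gm44079, Gm45091, Tmem189 and Spidr overlap G0s2, Pparg, Cebpa, Cebpb and Cebpd on the opposite strand, and their reads cannot be told apart without strand.

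Cells were barcodes with at least 1000 UMIs, 500 genes and at most 10% mitochondrial UMIs. A cell with Xist UMIs and none of Ddx3y, Eif2s3y, Kdm5d or Uty was scored female, and the reverse male. The remaining 1250 knock-in and 385 wild-type kept cells were unclear and enter no value by sex. Scrublet in scanpy 1.11.5 scored doublets, and the top 0.8% per 1000 cells were removed (330 knock-in, 109 wild-type), where its own threshold would have called 120 in the knock-in and 4 in the wild-type library. Both libraries were clustered together without integration, on 2000 variable genes that left out the 10 genes, the pathway lists, Mgp and mitochondrial, ribosomal, hemoglobin and sex-linked genes, with 30 components, 15 neighbours and Leiden resolution 0.5. Classes were named from 22 marker lists by the mean gain of each list, and a cluster stayed unnamed where another list passed 0.65 of the best. The finer clustering used resolution 1.0.

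UMIs were summed per class and library as CPM. Ratios carry exact conditional binomial intervals, sums Poisson intervals and shares Clopper-Pearson intervals, all at 95% and for counting error only. With 1 library per genotype no p-value was computed. A count of 0 has a floor of 3 counts per library. All 10 genes are named; from each pathway list the 4 largest ratios past 1.5-fold were eligible. Fabp5, Errfi1, the clock gene Clock, Stat5a and genes named from single barcodes or neighbouring loci were chosen after their values were seen. Similar genes needed at least 200 UMIs. The ratio step was run on simulated Poisson counts. These hold no spread between cells or libraries, so that run cannot test such spread. Python 3.11.15, numpy 2.4.6, scipy 1.17.1, pandas 2.3.3 and igraph 0.11.9 were used, and matplotlib 3.10.9 for figures.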

Additional observations from a re-analysis of the deposited data

Results flagged for a closer look

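Some genes differed between the libraries in opposite directions in 2 kinds of cells, with counting intervals on opposite sides of 0, at least 50 UMIs in each and 1 or both past 1.5-fold. None of these differences between cell classes was tested, since each genotype has 1 library. Each is given as the log2 ratio of knock-in over wild-type in the class named first minus that in the class named after it.

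G0s2 differed by 2.73 between fibroblast-like cells (1.79) and the Mdga2 cluster (-0.94), and by 3.82 between fibroblast-like cells and the cell-cycle cluster (-2.03). It differed by 2.46 between endothelial-like cells (1.52) and the Mdga2 cluster, and by 3.55 between endothelial-like cells and the cell-cycle cluster. The cell-cycle value rests on a single wild-type cell rich in adipocyte markers, without which it was -0.46. The markers of that cluster also differed between the libraries, with T-cell markers at 988 CPM in knock-in and 14.0 CPM in wild-type cells and fibroblast markers at 6726 CPM in knock-in and 21367 CPM in wild-type cells, and their part in its values was not tested.

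Cd36 differed by 3.90 between fibroblast-like (1.45) and endothelial-like cells (-2.45), and by 2.73 between macrophage or monocyte-like (0.28) and endothelial-like cells. The fibroblast-like value was 0.58 without the barcodes rich in adipocyte markers. Fabp4 differed by -1.15 between SMC-like cells (-0.19) and the Mdga2 cluster (0.96), where male cells alone gave 0.39. Between the Mdga2 and the cell-cycle cluster (-4.58) Fabp4 differed by 5.55, and the cell-cycle value was -2.23 without the same cell.

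Pparg differed by 2.14 between fibroblast-like (0.96) and SMC-like cells (-1.18), and the fibroblast-like value was -0.17 without the barcodes rich in adipocyte markers. By SMC-like cluster the Pparg value was -0.76 in Mylk4 cells, with an interval that held 0, and -0.96 in Sncg cells. Cebpd differed by 0.69 between fibroblast-like (0.03) and SMC-like cells (-0.66), by 0.81 between fibroblast-like cells and the Mdga2 cluster (-0.79), and by 1.05 between fibroblast-like cells and the cell-cycle cluster (-1.02), where the cells outside the T-cell-marked finer cluster gave 0.05. Between the SMC-like clusters led by Mylk4 and Sncg, Cebpd differed by -1.35 (-0.86 and 0.49) and Cebpb by -0.91 (-0.19 and 0.72).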

How the results depend on the processing

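The 52 results were recomputed under 659 alternatives in all, of which 499 left a result within its counting interval or count limit, 154 moved it and 6 reversed its sign. Lpl stayed lower and G0s2 higher in fibroblast-like cells under the 20 settings tried for each. Lpl stood at -1.03 with median-ratio scaling, -1.34 in cells of 8000 to 20000 UMIs, -1.25 in female cells, -1.05 in male cells, -0.50, -0.80 and -1.68 in the Pex5l, Entpd2 and Tmem100 clusters alone, and -1.22 without the Entpd2 cluster. G0s2 stood at 1.87 with median-ratio scaling, 1.52 in cells of 8000 to 20000 UMIs, 1.89 in female cells, 1.504 in male cells, 1.87 as a mean of per-cell levels, 0.68 in the Tmem100 cluster alone and 1.69 with clusters weighted equally.

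The 3 genes called higher in fibroblast-like cells became 1 in cells of 8000 to 20000 UMIs, in female cells, without the adipocyte-marker barcodes, without each gene's top cell, and in the Pex5l or Entpd2 cluster alone. The 1 called lower became 3 in female cells, 0 in the Pex5l cluster alone, and 2 in male cells, in cells of 8000 to 20000 UMIs, without the adipocyte-marker barcodes, without each gene's top cell, and in the Entpd2 or Tmem100 cluster alone. In SMC-like cells 1 gene was called higher at a UMI minimum of 2000, and 1 lower with a mitochondrial maximum of 5% or with the 10 genes among the clustering genes. All genes called higher in fibroblast-like cells numbered 2038 at a count minimum of 10, 4394 with none and 432 at 2-fold, and those lower 1921, 4109 and 411. In SMC-like cells the higher numbered 1763, 2694 and 374, and the lower 1931, 5289 and 305.

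In 6 cases the sign reversed. Pparg in fibroblast-like cells was -0.62 in female cells and -0.17 without the adipocyte-marker barcodes. Lpl in macrophage or monocyte-like cells was 0.031 at a UMI minimum of 2000 and 0.072 at resolution 1.0. In the cell-cycle cluster, in cells of 8000 to 20000 UMIs, Fabp4 was 0.18 and G0s2 was 1.38. Where no value above shows it, the cause was not tested. Leaving out the adipocyte-marker barcodes, each gene's top cell or the Entpd2 cluster was chosen after seeing the data. No paired analysis was possible because each genotype has 1 library. Depth limits Adipoq, Pparg and Cd36 outside macrophages, which rest on few UMIs.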

Other observations

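Neighbouring genes were read from the gene order of GENCODE vM21. Hsd11b1, which lies next to G0s2 on the same strand and encodes the enzyme that regenerates active glucocorticoid, was at 62.5 CPM in knock-in and 27.2 CPM in wild-type fibroblast-like cells, a log2 ratio of 1.20 (interval 1.10 to 1.30). Lamb3, which overlaps G0s2 on the opposite strand, had 27 UMIs in knock-in and 31 UMIs in wild-type cells. Beside Lpl, Ints10 was at 9.52 CPM in knock-in and 10.8 CPM in wild-type cells, a ratio of -0.19. Slc7a10, next to Cebpa and known as an amino acid transporter of adipocytes, had 11 UMIs in knock-in and 162 UMIs in wild-type cells, a ratio of -3.07. Tmem189, which overlaps Cebpb on the opposite strand, was at 24.2 CPM in knock-in and 24.4 CPM in wild-type cells, and Spidr, which overlaps Cebpd, at 43.1 CPM in knock-in and 45.9 CPM in wild-type cells.

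Each library also held 1 barcode with adipocyte markers among those removed as doublets. The knock-in one, of 58548 UMIs, held 327 Fabp4, 24 Adipoq and 18 Plin1 UMIs. The wild-type one, of 77819 UMIs, held 606 Fabp4, 165 G0s2, 48 Plin1 and 21 Adipoq UMIs.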
